A study of Mus musculus with 4 samples.

Results

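Hox-positive smooth muscle cells were cells of the mouse thoracic aorta that carried the smooth muscle myosin transcript Myh11 together with Hoxc10 or Hoxa10. A cell entered the set with at least 3 UMIs of Myh11, fewer than 10 UMIs of Dcn plus Lum (fibroblast genes), fewer than 10 UMIs of Lyz2 plus C1qa plus C1qb (macrophage genes), and at least 1 UMI of Hoxc10 plus Hoxa10. A UMI is a molecular barcode that counts each captured transcript once. The rule found 681 of 38316 cells in 4 libraries, and 626 of them came from 1 library, the AngII-treated Sting knockout (KO AngII). The other members were 17 cells of KO saline, 5 cells of WT AngII and 33 cells of WT saline. The same gate with no Hoxc10 or Hoxa10 UMI gave the Hox-negative smooth muscle cells they were compared with. The values that chose the members (Myh11, Hoxc10, Hoxa10, Dcn, Lum, Lyz2, C1qa and C1qb) are description only.

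Hox genes encode homeodomain transcription factors that lie in the HoxA, HoxB, HoxC and HoxD clusters. Along the body axis, low-numbered paralogues are used towards the head and high-numbered paralogues towards the tail, and blood vessel wall cells keep such a positional pattern into adult life. Hoxc10 and Hoxa10 belong to the more caudal paralogues. Smooth muscle of the aorta comes from several embryonic sources, with neural crest and heart-field cells near the heart and somite-derived cells in the descending aorta.

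The study asked what STING, an adaptor protein of the cytosolic DNA sensing pathway, does in the aorta. KO AngII mice were labelled Sting-KO and received a high fat diet for 5 weeks with angiotensin II (AngII, a vasoconstrictor hormone) infused for 7 days. KO saline mice were Sting-KO on normal diet with saline. WT AngII mice were wild type with the same diet and infusion as KO AngII, and WT saline mice were wild type on normal diet with saline. Each group was 1 library of 3 pooled thoracic aortas, so diet and infusion cannot be told apart, and neither can genotype or treatment be told apart from the mice, the dissection or the library. The sources used here give no strain, no age and no position along the aorta for any cell. Because a group was 1 library, differences were described and not tested, and none has a replicate check. All intervals are 95% and cover counting error only. The KO AngII, KO saline, WT AngII and WT saline libraries held 94698727, 76841976, 90581097 and 60064038 UMIs, and median UMIs per cell were 9294, 6071, 9938 and 5888. Tmem173, the gene of STING, gave 578, 102, 637 and 105 UMIs in the same order of libraries, so the transcript was present in libraries labelled knockout. The altered part of the gene is not given, and a 3′ tag outside it checks nothing. Of the KO AngII cells, 330 had a barcode that also occurred in another library, among them 19 Hox-positive smooth muscle cells.

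Hox-positive cells were more frequent in KO AngII than in the other 3 libraries. After cells with fewer than 500 genes or more than 20% mitochondrial UMIs were left out, they were 625 of 5345 gated smooth muscle cells of KO AngII (11.7%, exact binomial interval 10.8 to 12.6). They were 17 of 9872 in KO saline (0.172%, 0.10 to 0.276), 5 of 5584 in WT AngII (0.0895%, 0.0291 to 0.209) and 33 of 7339 in WT saline (0.450%, 0.310 to 0.631). The KO AngII interval lay above the other 3, and KO AngII held 91.9% of all Hox-positive cells. With cells thinned to 5000 UMIs and shallower cells left out, the shares were 7.97% of 4843 cells in KO AngII, 0.142% of 7027 in KO saline, 0.0366% of 5470 in WT AngII and 0.373% of 5364 in WT saline. Leaving out shallower cells took 9.24%, 28.9%, 2.04% and 27.0% of the Hox-negative cells of these libraries. Without barcodes shared between libraries they were 11.8%, 0.178%, 0.0929% and 0.438%.

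Free RNA in droplets can place a UMI in a cell that does not make it, so the same share was taken in macrophage-type cells, which should lack these genes. The phagocyte gate held Hoxc10 or Hoxa10 UMIs in 4 of 477 cells of KO AngII (0.839%, 0.229 to 2.13; median 7181 UMIs per cell), against 11.7% of smooth muscle cells, whose Hox-positive and Hox-negative medians were 7612 and 8627 UMIs. It held them in 0 of 65 cells of KO saline, which allows a share of up to 4.62% (3 counts of the total, a limit used for counts of 0), in 0 of 620 of WT AngII, which allows up to 0.484% by the same limit, and in 1 of 251 of WT saline (0.398%, 0.0101 to 2.20). The smooth muscle shares of KO saline, WT AngII and WT saline lay within the interval or limit of the phagocyte gate, which held too few cells to separate shares this low from free RNA. Of their members, 1 of 17 in KO saline, 0 of 5 in WT AngII and 6 of 33 in WT saline had at least 2 such UMIs. The endothelial gate gave 4 of 38 cells in KO AngII (10.5%), 9 of 50 in KO saline (18%), 1 of 20 in WT AngII (5.00%) and 14 of 111 in WT saline (12.6%), with wide intervals that overlapped one another.

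**Figure D1:**
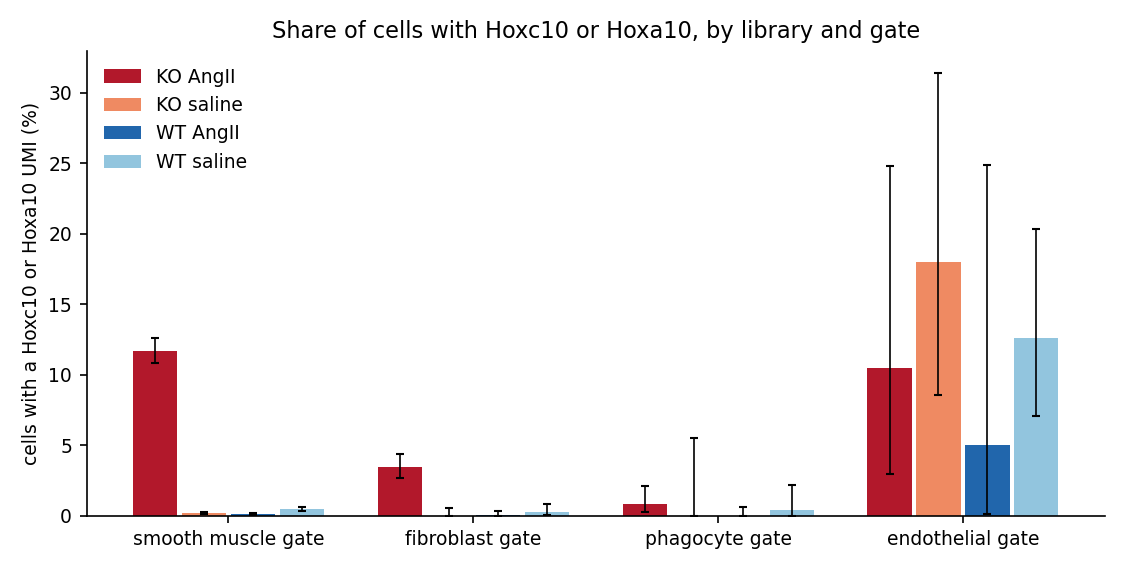
Bars show the percentage of cells with at least 1 UMI of Hoxc10 or Hoxa10 in the smooth muscle, fibroblast, phagocyte and endothelial gates of each library, and lines are 95% exact binomial intervals. The smooth muscle bar of KO AngII stands at 11.7%, against at most 0.450% in the other 3 libraries, while the endothelial intervals of all 4 libraries overlap. Depth was not made equal for these bars.

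Both genes were sparse. Hoxc10 lies at chromosome 15, 102966796 to 102971893 on the plus strand, and Hoxa10 at chromosome 6, 52231197 to 52240854 on the minus strand (GRCm38, GENCODE M21 gene models). Among the 625 KO AngII members, 262 carried only Hoxc10, 258 only Hoxa10 and 105 both. A single UMI made 404 cells members, 2 UMIs made 152 and 3 or more made 69, with a highest value of 7. At the edges of the rule, 10 members had exactly 3 Myh11 UMIs and 5 further Hox-carrying cells had 2 and stayed out. No member had more than 4 Dcn plus Lum UMIs, whereas 28 cells with Myh11 and Hox UMIs were left out for reaching 10. Median Myh11 was 13 UMIs in Hox-positive and 10.0 in Hox-negative cells, median genes per cell were 2340 and 2573, and median mitochondrial shares were 5.69% and 5.38%.

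The label's other markers were described in the summed counts of KO AngII, as CPM (UMIs per 1000000 UMIs of the set). Rgs5, a brake on G protein-coupled receptor signalling that is abundant in pericytes (chromosome 1, 169655501 to 169695813), stood at 4040 CPM in Hox-positive and 658 CPM in Hox-negative cells, a log2 ratio of 2.62 (interval 2.59 to 2.64). Hox-negative smooth muscle of KO saline, WT AngII and WT saline had 395, 303 and 195 CPM of Rgs5. P2rx1, an ATP-gated cation channel of arterial smooth muscle (chromosome 11, 72999103 to 73015200), was at 149 CPM in Hox-positive and 35.0 CPM in Hox-negative cells (2.09, 1.97 to 2.21), and at 18.2, 27.0 and 13 CPM in the Hox-negative cells of KO saline, WT AngII and WT saline. Hox-positive cells were therefore above the Hox-negative cells of every library for both genes.

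Des, which encodes the muscle intermediate filament desmin (chromosome 1, 75360329 to 75368579), had 569 CPM in Hox-positive and 163 CPM in Hox-negative cells (1.80, 1.74 to 1.86). Its levels in Hox-negative cells of KO saline, WT AngII and WT saline were 146, 77.9 and 135 CPM. Hspb1, a small heat shock protein that binds actin filaments (chromosome 5, 135887919 to 135889563), had 6765 CPM in Hox-positive and 3049 CPM in Hox-negative cells (1.15, 1.13 to 1.17), beside 1361, 1245 and 2170 CPM in Hox-negative cells of KO saline, WT AngII and WT saline. For Hspb1 the Hox-negative cells of KO AngII were themselves above those of the other libraries. The smooth muscle identity held in both sets: Acta2, smooth muscle actin, was at 25901 CPM in Hox-positive and 19249 CPM in Hox-negative cells. All 4 further markers of the label were higher in the Hox-positive cells of KO AngII. The label was chosen with earlier results of these data known, so this describes the set and is no check of the label. The word caudal in the label describes which Hox paralogues are present, and no file records where along the aorta a cell lay.

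Further Hox genes, which the rule did not use, followed the paralogue number and the cluster. Of 31 Hox genes in the files, 18 had at least 20 UMIs in the Hox-positive cells. Hoxa9 was at 19.5 CPM in Hox-positive and 2.13 CPM in Hox-negative cells (3.20, 2.79 to 3.60). Hoxc9 was at 15.3 and 1.51 CPM (3.34, 2.87 to 3.81), and Hoxd8 at 17.7 and 1.51 CPM (3.55, 3.10 to 4.01), each with the Hox-positive value first. In Hox-negative cells of KO saline, WT AngII and WT saline Hoxa9 stood at 0.995, 0.634 and 1.14 CPM, and Hoxd8 at 0.104, 0.0500 and 0.196 CPM. Hoxc8 had 16.9 CPM in Hox-positive and 2.80 CPM in Hox-negative cells, Hoxc6 12.1 and 3.74 CPM, and Hoxd9 3.72 and 0.382 CPM.

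The most caudal HoxA gene with counts, Hoxa11, had 13 UMIs in Hox-positive and 10 UMIs in Hox-negative cells of KO AngII, although the Hox-negative set was larger (3.59, 2.28 to 4.94). It had 0 UMIs in Hox-negative smooth muscle of KO saline, WT AngII and WT saline. In the middle of the HoxA cluster the sets were close, with Hoxa7 at 45.6 CPM in Hox-positive and 37.8 CPM in Hox-negative cells (0.27) and Hoxa5 at 18 and 16.5 CPM (0.13, interval -0.19 to 0.44). Hoxa3 was lower, at 12.8 CPM in Hox-positive and 25.3 CPM in Hox-negative cells (-0.98, -1.35 to -0.63).

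HoxB genes were lower in the Hox-positive cells whatever their paralogue number. Hoxb2 had 17.5 CPM in Hox-positive and 36.6 CPM in Hox-negative cells (-1.07, -1.38 to -0.77), beside 43.5, 41.0 and 34.6 CPM in Hox-negative cells of KO saline, WT AngII and WT saline. Log2 ratios of Hoxb3 to Hoxb8 lay between -0.59 (Hoxb6) and -1.13 (Hoxb7), with intervals below 0, and the interval of Hoxb9 (-2.59 to 0.35) included 0. Summed over each cluster without Hoxc10 and Hoxa10, HoxB stood at 57.7 CPM in Hox-positive and 111 CPM in Hox-negative cells, HoxC at 48.4 and 9.31 CPM, HoxD at 22.9 and 2.33 CPM, and HoxA at 103 and 92.4 CPM. Hox gene models overlap in the annotation (Hoxc5 with Hoxc6, Hoxc8, Hoxc9 and Hoxc10 on one strand, and Hoxa3 with Hoxa4, Hoxa5 and Hoxa6), and the sources used here do not say which model received a shared read.

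**Figure D2:**
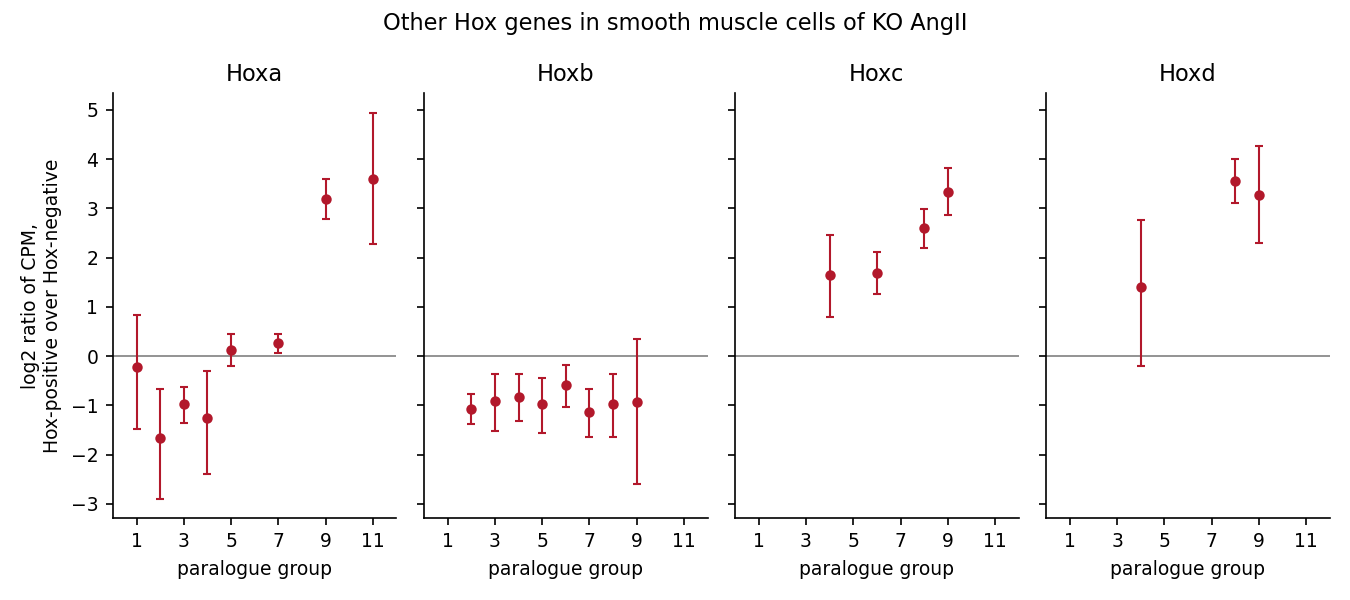
Points are log2 ratios of CPM, Hox-positive over Hox-negative smooth muscle cells of KO AngII, for Hox genes with at least 20 UMIs in both sets together, by cluster and paralogue number, and lines are 95% counting intervals. Caudal HoxA genes and all plotted HoxC genes lie above 0, Hoxd8 and Hoxd9 lie above 3, and all plotted HoxB genes lie below 0, with Hoxb9's interval crossing it.

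Levels were also ordered by how many Hoxc10 plus Hoxa10 UMIs a cell of KO AngII had. Rgs5 was at 658, 3805, 4257 and 4845 CPM in cells with 0, 1, 2 and 3 or more such UMIs, and the counting intervals of these 4 values did not overlap. Hoxb2 was at 36.6, 21.5, 13.3 and 4.57 CPM, with overlapping intervals between neighbouring values among members. The other 3 markers of the label were not ordered in this way among members. Hspb1 had 6804, 6701 and 6683 CPM, Des 578, 511 and 638 CPM, and P2rx1 141, 168 and 155 CPM at 1, 2 and 3 or more UMIs. Median depths of these 4 sets of cells were 8627, 7488, 7481 and 9295 UMIs. Cells with Hoxc10 only and cells with Hoxa10 only had 3996 and 3727 CPM of Rgs5 and 576 and 549 CPM of Des, and differed in Spp1, with 22.3 CPM (16.5 to 29.6) and 160.4 CPM (144 to 178).

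Across all genes, Hox-positive cells of KO AngII stood 1.5-fold or more above Hox-negative cells in 183 of 7107 tested genes (2.57%) and 1.5-fold or more below them in 232 (3.26%). A 2-fold limit left 58 genes above (0.816%) and 57 below (0.802%), and the median log2 ratio over all tested genes was -0.02. A gene was tested when the smaller set was expected to hold at least 50 of its UMIs (the mean of its CPM in both sets times the total UMIs of the smaller set) and its level was not far below that in other cell kinds of the library. Hoxc9, Hoxc6, Hoxd9 and several HoxB genes fell short of 50 expected UMIs and are outside these counts.

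Of the 12 higher genes whose counting intervals ended farthest from 0, Hoxd8, Hoxa9, Hoxc8 and Rgs5 are described above. Fbln7, the matrix protein fibulin 7, was at 64.6 CPM in Hox-positive and 10.3 CPM in Hox-negative cells (2.65). Ptger3, a prostaglandin E2 receptor, was at 18 and 2.68 CPM (2.75), Kit, a receptor tyrosine kinase, at 17.1 and 2.84 CPM (2.59), and Pcp4, a calmodulin-binding peptide, at 22.1 and 3.72 CPM (2.57). Adamts8, a secreted metalloprotease, had 70.5 CPM in Hox-positive and 13.9 CPM in Hox-negative cells (2.35). Timp4, a metalloprotease inhibitor, had 42.8 and 8.57 CPM (2.32), but Hox-negative cells of WT saline reached 42.4 CPM of Timp4, so its level in the Hox-positive cells was not above every library. Tnr, the matrix protein tenascin R, had 16.7 and 2.74 CPM (2.61), and Proser2 had a log2 ratio of 2.25.

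Of the 12 lower genes, several are matrix or secreted products. Spp1, which encodes osteopontin, had 84.1 CPM in Hox-positive and 305 CPM in Hox-negative cells of KO AngII (-1.86), beside 0.683, 159.7 and 1.71 CPM in Hox-negative cells of KO saline, WT AngII and WT saline. Acan, the cartilage proteoglycan aggrecan, had 33.1 CPM in Hox-positive and 135 CPM in Hox-negative cells (-2.02), beside 21.4, 105 and 27.7 CPM in the same 3 libraries. For both genes the Hox-negative cells of the 2 AngII libraries were above those of the 2 saline libraries, and the Hox-positive cells as one set lay between them. Their levels differed by Hox UMIs, however, with 108, 47.6 and 32 CPM of Spp1 and 40.7, 20.3 and 18.3 CPM of Acan in members with 1, 2 and 3 or more Hoxc10 plus Hoxa10 UMIs. In members with 2 and with 3 or more UMIs the intervals of Acan (13.3 to 29.7 and 9.44 to 31.9 CPM) included both saline values, while Spp1 stayed above both. Most Spp1 counts of the Hox-positive cells lay outside the 2 clusters, described below, that held most of these cells.

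Kcnj15, an inwardly rectifying potassium channel, had the lowest ratio, with 3.35 CPM in Hox-positive and 31.1 CPM in Hox-negative cells of KO AngII (-3.21, -3.97 to -2.55), beside 31.7, 63.5 and 33.0 CPM in Hox-negative cells of KO saline, WT AngII and WT saline. Prrx2, a homeobox gene of embryonic mesenchyme, was at 4.09 CPM in Hox-positive and 28.4 CPM in Hox-negative cells (-2.79), beside 15.1, 31.1 and 13.2 CPM. Hox-positive cells thus stood below the Hox-negative cells of all 4 libraries for Kcnj15 and Prrx2. The chemokine gene Cxcl12 had 62.3 CPM in Hox-positive and 203 CPM in Hox-negative cells (-1.70), and the chloride channel gene Ano1 had 14 and 48.5 CPM (-1.80). Srpx2 (-2.68), Atp1b1 (-2.22), Emb (-1.66) and Aqp1 (-1.57) were also among the 12, of which 10 are reported here.

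**Figure D3:**
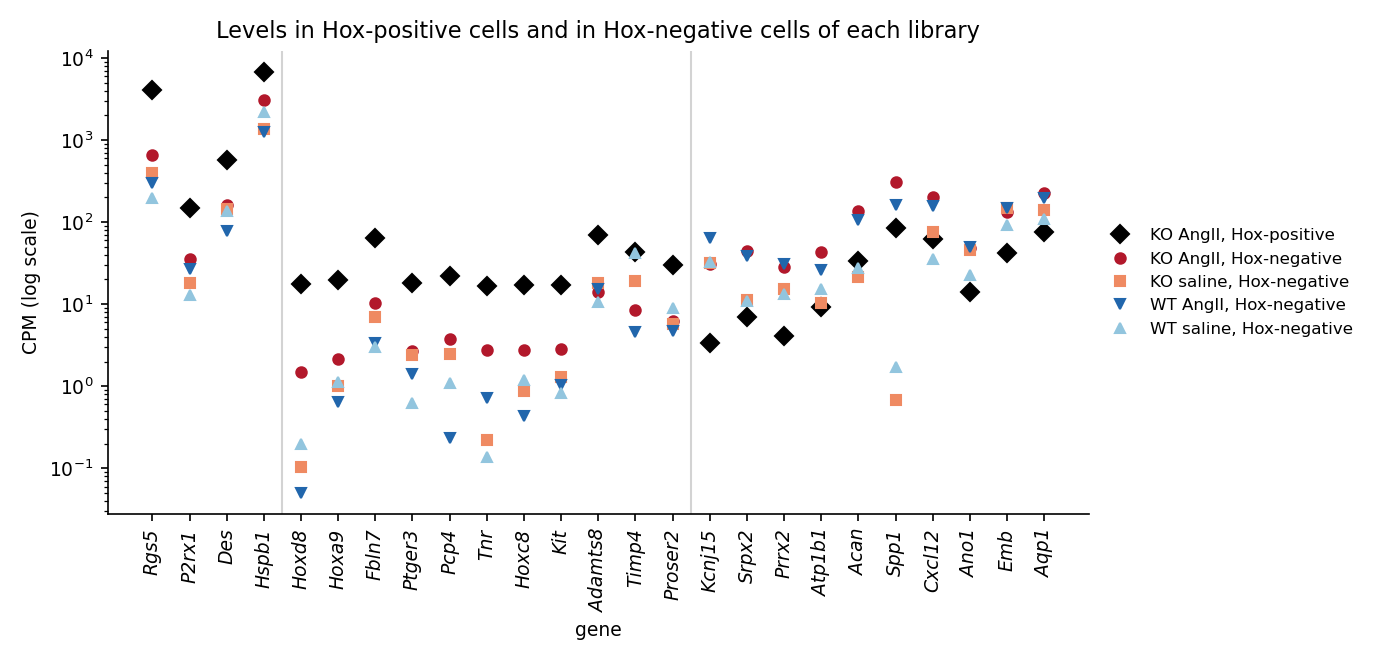
Each column is a gene and the y axis is its level in CPM on a log scale, in Hox-positive cells of KO AngII (black diamonds) and in Hox-negative smooth muscle cells of the 4 libraries, with the 4 label markers left of the first line, higher genes between the lines and lower genes right of them. Rgs5 at 4040 CPM stands above all 4 Hox-negative sets, Timp4 at 42.8 CPM is matched by WT saline, and Spp1 at 84.1 CPM lies between the AngII and saline libraries.

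Few genes of any kind reached 1.5-fold, 2.57% of all tested genes upwards and 3.26% downwards. None of 17 tested members of the contractile apparatus list passed 1.5-fold in either direction, which is near those shares. Their median log2 ratio was 0.38, beside -0.02 over all tested genes. The largest was Synpo2, an actin-bundling protein, at 419.6 CPM in Hox-positive and 281 CPM in Hox-negative cells (0.58), below the 571 and 606 CPM of Hox-negative cells of KO saline and WT saline, followed by calponin Cnn1 (0.55) and transgelin Tagln (0.51). Among 16 intermediate filament and dense plaque genes, 2 passed 1.5-fold upwards and 0 downwards, namely Des and its partner synemin, Synm, at 75.2 CPM in Hox-positive and 29.5 CPM in Hox-negative cells (1.35).

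Genes of pericytes and small-vessel mural cells divided. Of 11 tested, 5 were at least 1.5-fold higher and 1 lower (median 0.36), beside 2.57% higher and 3.26% lower over all tested genes. Rgs5 led, and the Notch receptor Notch3 (16.9 CPM in Hox-positive and 9.03 CPM in Hox-negative cells, 0.91), the Notch target Heyl (63.4 and 38.5 CPM, 0.72) and Kcnj8, a subunit of the ATP-sensitive potassium channel (35.7 and 22.0 CPM, 0.70), were also higher. Cox4i2, a pericyte-enriched subunit of the respiratory chain, was lower, at 9.67 CPM in Hox-positive and 23.2 CPM in Hox-negative cells (-1.26), and Vtn, a pericyte marker, had 0 UMIs in Hox-positive cells. Of 6 Notch signalling genes tested, 3 were higher and 0 lower (median 0.50), Notch3, Heyl and Notch2 (53.0 and 35.0 CPM, 0.60). None of these 3 was above every other library. Hox-negative cells of KO saline, WT AngII and WT saline had 18.1, 9.23 and 16.1 CPM of Notch3. In the same order they had 98.0, 77.8 and 121 CPM of Heyl, and 87.1, 43.3 and 55.7 CPM of Notch2. Among 9 vasoactive receptor and G protein regulator genes 3 were higher, Ptger3, Rgs5 and Rgs2, and 0 lower. Rgs2, another brake on G protein signalling, had 56.4 CPM in Hox-positive and 26.4 CPM in Hox-negative cells (1.10), and 40.6, 16.0 and 41.2 CPM in Hox-negative cells of KO saline, WT AngII and WT saline. By cluster, described below, Rgs2 was raised in members of cluster 1 and not in those of cluster 2.

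Some heat shock chaperones were higher. Of 13 tested, 4 passed 1.5-fold higher and 0 lower, with a median of 0.53, beside 2.57% higher and 3.26% lower over all tested genes. Hspa1a, an inducible Hsp70, was at 742 CPM in Hox-positive and 347 CPM in Hox-negative cells (1.10), Hspa1b at 243 and 118 CPM (1.04), Dnajb1, an Hsp40 co-chaperone, at 261 and 150.4 CPM (0.79), and Dnaja1 at 412 and 256 CPM (0.69). Hspa1a and Hspa1b are near-identical copies, so the split of reads between them is uncertain. Of 22 immediate early genes tested, 0 passed 1.5-fold upwards and 1, Egr2, was lower (-0.75), with a median of 0.01. Among 6 small heat shock protein genes Hspb1 was higher and Hspb7 lower (-0.63). Of 17 unfolded protein response genes and 22 respiratory chain genes, 0 passed in either direction, with medians of -0.21 and 0.01.

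Heat shock genes are switched on by HSF1, which binds repeats of the block nGAAn in their promoters, so the 250 bases before the RefSeq start of these genes (GRCm38.p6) were searched for GAANNTTC on both strands. The motif was chosen with the values known. It reads the same on both strands, so each match counts once, and it occurred in 2199 of 32851 promoter windows of that length (6.69%). Of 12 genes looked up 11 matched the RefSeq table, all but Hoxc10. Hspb1 held 2 matches, 117 to 110 and 97 to 90 bases before the start, Hspa1a and Hspa1b held 1 each, 104 to 97 bases before it, and Dnaja1 held 1 in 1 of its 3 windows. Dnajb1, which was also higher, held no match in either of its windows, and neither did the windows of Rgs5, P2rx1, Des and Hoxa10. Heat shock genes that were not higher were not searched, so whether a match goes with a higher level was not tested. The pair shown are the heat shock genes with the largest ratios, written 5′ to 3′ on the gene's strand with the matches in capitals. Hspb1 is at chr5:135887669-135887918, plus strand, and Hspa1a at chr17:34972157-34972406, minus strand.
Hspb1: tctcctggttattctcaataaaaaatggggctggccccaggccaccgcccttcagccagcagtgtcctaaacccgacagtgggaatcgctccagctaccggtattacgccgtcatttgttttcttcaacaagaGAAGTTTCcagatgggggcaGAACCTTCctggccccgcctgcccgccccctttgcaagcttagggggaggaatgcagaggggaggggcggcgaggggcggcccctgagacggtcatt
Hspa1a: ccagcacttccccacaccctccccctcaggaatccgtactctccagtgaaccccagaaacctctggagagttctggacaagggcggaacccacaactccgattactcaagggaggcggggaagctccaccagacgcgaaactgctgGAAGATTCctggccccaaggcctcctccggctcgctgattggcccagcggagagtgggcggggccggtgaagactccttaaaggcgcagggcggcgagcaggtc
A match to these letters is a description of the sequence and does not show binding in these cells.

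Elastic fibre genes were in part lower, and other matrix genes divided. Of 15 elastic fibre genes tested, 6 were at least 1.5-fold lower and 0 higher (median -0.31). Over all tested genes 3.26% were lower and 2.57% higher. Eln, which encodes elastin, was at 3727 CPM in Hox-positive and 7153 CPM in Hox-negative cells of KO AngII (-0.94), beside 1761, 6047 and 2128 CPM in Hox-negative cells of KO saline, WT AngII and WT saline. The elastin-associated fibulin Fbln2 (19.0 and 45.8 CPM, -1.27) and the cross-linking enzyme Lox (295 and 536 CPM, -0.86) were also lower. Of 18 collagen and fibrosis genes, 1 was higher and 3 lower (median -0.25). The higher one was fibronectin, Fn1, at 5234 CPM in Hox-positive and 2295 CPM in Hox-negative cells (1.19), beside 721, 2487 and 654 CPM in Hox-negative cells of KO saline, WT AngII and WT saline. Of 9 proteoglycan genes 1 was higher and 2 lower (median 0.05). The higher one was Ogn, which encodes osteoglycin, at 730.1 CPM in Hox-positive and 380.4 CPM in Hox-negative cells (0.94). Hox-negative cells of KO saline, WT AngII and WT saline had 954, 369 and 1313 CPM of Ogn, so both saline libraries were above the Hox-positive cells. The lower ones were Prelp (-0.89) and Aspn (-0.63).

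Modulated smooth muscle genes, which mark cells that have left the contractile state, had 5 of 8 tested members at least 1.5-fold lower and 1, Fn1, higher (median -0.98). The shares over all tested genes were 3.26% lower and 2.57% higher. Vcam1, a leukocyte adhesion molecule, was at 31.3 CPM in Hox-positive and 88.4 CPM in Hox-negative cells (-1.50), the lectin Lgals3 at 91.7 and 239 CPM (-1.38), and Tnfrsf11b, osteoprotegerin, at 59.9 and 145 CPM (-1.27). Of 4 chondrogenic genes 3 were lower (median -1.58): Acan, Spp1 and the transcription factor Sox9, which had 40.2 CPM in Hox-positive and 98.6 CPM in Hox-negative cells (-1.30). Comp, a cartilage matrix protein, was at 19.7 and 15 CPM (0.39). Spp1 and Acan were also below the Hox-negative level in clusters with few Hox-positive cells, described below. Of 8 Wnt pathway genes 4 were lower and 0 higher (median -0.56), and these were secreted Wnt antagonists and related proteins, Wif1 (-1.34), Frzb (-1.17), Sfrp2 (-1.01) and Dkk3 (-0.62).

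Smaller groups held a few genes apart, beside 2.57% of all tested genes at least 1.5-fold higher and 3.26% lower. Insulin-like growth factor binding proteins Igfbp5 (64.4 CPM in Hox-positive and 16.5 CPM in Hox-negative cells, 1.96) and Igfbp4 (164 and 93.5 CPM, 0.81) were 2 of 5 tested genes of that axis and were higher. Igfbp5 was raised in members of cluster 1 and not in those of cluster 2, as described below. Of 6 retinoic acid genes 2 were higher, the retinol carrier Rbp4 (709 and 331 CPM, 1.10) and the retinal reductase Dhrs3 (132 and 71.3 CPM, 0.88). Of 9 Hox cofactor and chromatin genes 2 were higher, Meis1 (28.3 and 13.4 CPM, 1.08) and Meis2 (60.3 and 36.5 CPM, 0.72), which encode homeodomain partners of Hox proteins. Among 11 transcription factors of embryonic origin 1 was higher and 2, Prrx2 and Twist1 (6.88 and 15.5 CPM, -1.18), were lower. In all of these brackets the Hox-positive level stands first. Meis1 and Meis2 in Hox-positive cells were within the range of the Hox-negative cells of the other 3 libraries, 15.4 to 31.7 CPM and 38.6 to 66.6 CPM.

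The remaining lists held few genes past 1.5-fold, beside 2.57% higher and 3.26% lower over all tested genes. Of 17 calcium and excitability genes 2 were higher, P2rx1 and Kcnj8, and 1, Ano1, was lower (median -0.08). Of 14 TGF-beta and BMP genes 1 was higher, the ligand Tgfb3, at 129.7 CPM in Hox-positive and 69.5 CPM in Hox-negative cells (0.90). Of 8 nitric oxide and cyclic nucleotide genes 1 was higher, Prkg1, the cGMP-dependent kinase that relaxes smooth muscle (15.4 and 8.41 CPM, 0.88, beside 17.9 CPM in Hox-negative cells of WT saline). Of 13 glycolysis and hypoxia genes 1, Ndrg1, was higher (89.5 and 37.5 CPM, 1.25) and 0 were lower, although the median was -0.28. Of 15 cholesterol synthesis genes 2 were lower, Mvd (-1.03) and Sc5d (-0.59), and 0 higher. Of 9 cell cycle genes 2 were lower, Cdk1 (-0.67) and Top2a (-0.61). Only 1 of 24 interferon-stimulated genes in the files had enough counts to be tested, Ifi35, at 22.0 CPM in Hox-positive and 21.2 CPM in Hox-negative cells (0.05, -0.24 to 0.33).

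**Figure D4:**
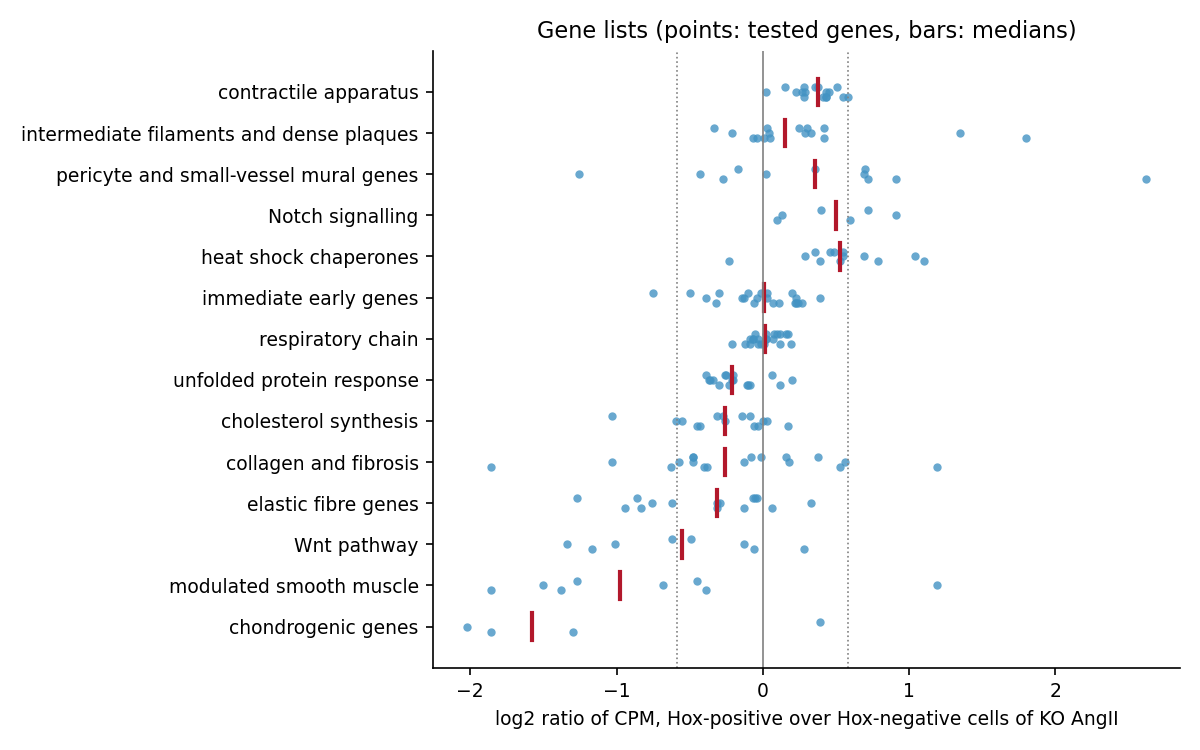
Points are log2 ratios of CPM, Hox-positive over Hox-negative smooth muscle cells of KO AngII, for the tested members of each gene list, red bars are list medians, and dotted lines mark 1.5-fold. The contractile list is tight around its median of 0.38, heat shock chaperones centre on 0.53, and the modulated and chondrogenic lists centre on -0.98 and -1.58.

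Markers of other cell types were summed in the same sets, leaving out the genes of the rule. The 8 fibroblast markers summed to 1111 CPM in Hox-positive, 1589 CPM in Hox-negative and 11816 CPM in fibroblast-gate cells. The 7 phagocyte markers summed to 14.1 and 12.8 CPM in Hox-positive and Hox-negative cells, against 7627 CPM in the phagocyte gate, and the 7 endothelial markers to 21.4 and 29.5 CPM, against 4846 CPM in the endothelial gate. Schwann and neural markers summed to 26.0 CPM in Hox-positive and 11.8 CPM in Hox-negative cells, with Sox10 at 0 UMIs in the Hox-positive cells. Adipocyte markers summed to 136 and 92.4 CPM, with Adipoq, Plin1, Cidec and Ucp1 at 0. The part of RNA from these cell types in the differences above was not tested. The Y-linked gene Ddx3y stood at 113 CPM in both sets.

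To see whether Hox-positive cells lie together when Hox genes are not used, gated smooth muscle cells of KO AngII were clustered on variable genes without any Hox gene. Of 14 clusters, 2 held most of them. Cluster 1 had 463 cells, of which 228 were Hox-positive (49.2%, 44.6 to 53.9), and was led by Fbln7, Igfbp5, Tmeff2, Rgs5 and Rgs2. Cluster 2 had 598 cells, of which 290 were Hox-positive (48.5%, 44.4 to 52.6), and was led by Adamts8, P2rx1, Des, Figf and Rgs5. Together they were 19.9% of the gated cells and held 82.9% of the Hox-positive ones. The other clusters held 107 Hox-positive cells among 4284 (2.50%). The clusters carry no cell type name here.

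For Rgs5 and the caudal Hox genes, the Hox-negative cells inside clusters 1 and 2 stood near the Hox-positive cells. They stood far from the Hox-negative cells outside these clusters. Rgs5 was at 4040 CPM in Hox-positive cells, 4279 CPM in the 543 Hox-negative cells inside and 335 CPM in the 4177 Hox-negative cells outside. Hoxa9 was at 19.5, 14.5 and 1.03 CPM, Hoxc9 at 15.3, 13.8 and 0.416 CPM, Hoxd8 at 17.7, 12.8 and 0.504 CPM, and Hoxb2 at 17.5, 15.5 and 38.5 CPM in these 3 sets in the same order. Spp1 and Acan did not stand near in this way. Spp1 was at 84.1, 17.2 and 331 CPM, and Acan at 33.1, 9.10 and 146 CPM. All cells of clusters 1 and 2 had 11.7 and 19.0 CPM of Spp1, so most Spp1 counts of the Hox-positive cells lay in members outside them. Expression of genes used to cluster is no finding between clusters. Hox genes were left out of the clustering. Rgs5, Spp1 and Acan were not left out, and Rgs5 led both clusters, so their contrasts with the cells outside are description only. An added comparison, chosen after the data were seen, set the Hox-positive cells against the Hox-negative cells outside. The log2 ratio of Hoxc9 was 5.20 instead of 3.34, and that of Hoxd8 5.13 instead of 3.55. That of Rgs5 was 3.59 instead of 2.62, a rise that is no finding because Rgs5 was open to the clustering.

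**Figure D5:**
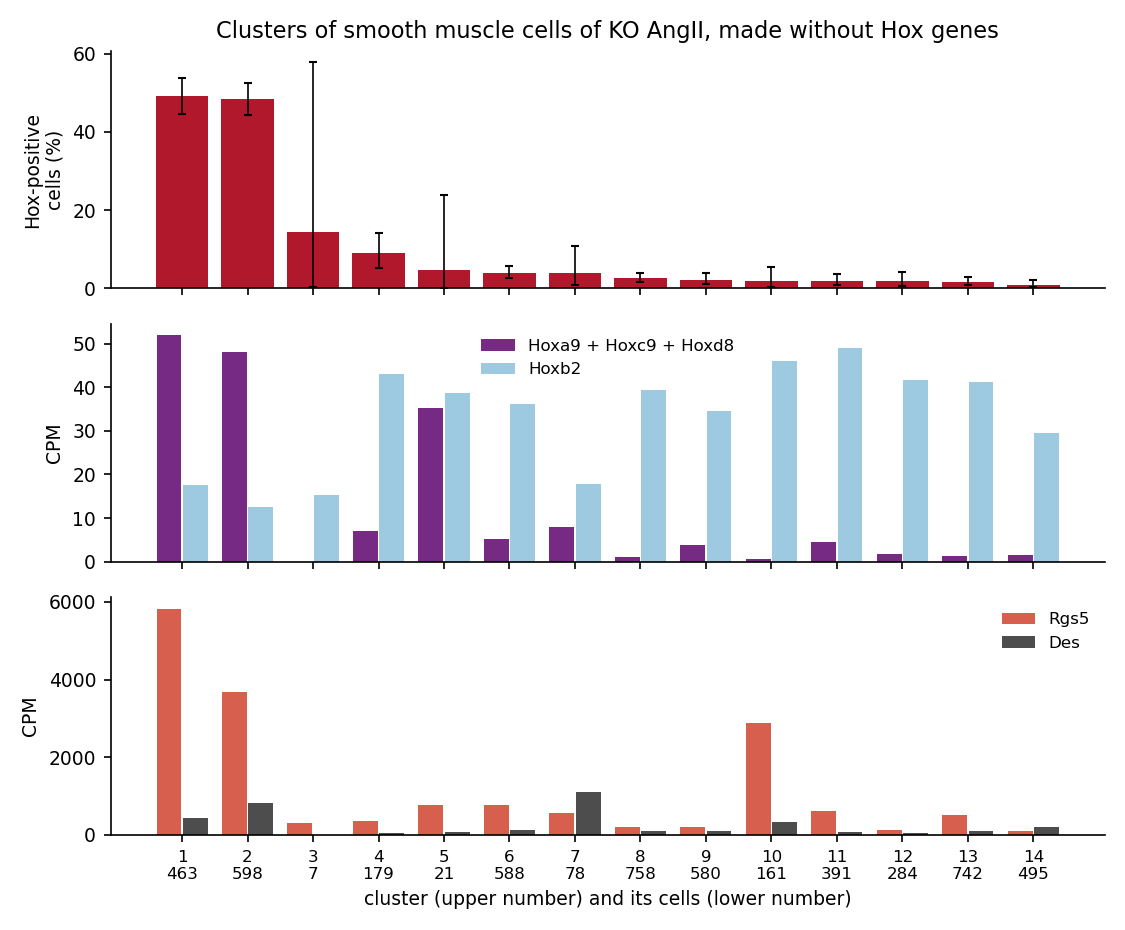
The x axis lists the 14 clusters with their cell numbers, and the panels show the percentage of Hox-positive cells with 95% exact binomial intervals (top), the summed CPM of Hoxa9, Hoxc9 and Hoxd8 beside Hoxb2 (middle), and the CPM of Rgs5 and Des (bottom). Clusters 1 and 2 are at 49.2% and 48.5% and have more caudal Hox and less Hoxb2 than most others, while cluster 10 has Rgs5 at 2877 CPM with few Hox-positive cells.

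Rgs5, Des and Hspb1 were not particular to clusters 1 and 2. Des was highest in cluster 7, at 1101 CPM, with 3 Hox-positive cells among 78. Clusters 1 and 2 had 444 and 827 CPM of Des. Hspb1 was at 5004 and 5190 CPM in clusters 6 and 11, near the 5251 CPM of cluster 2 and below the 13807 CPM of cluster 1. Cluster 10, led by Tfap2b, Msx2, Adamtsl1, Dlx5 and Prss12, had 2877 CPM of Rgs5 but 3.43 CPM of P2rx1, 0 of Hoxc9 and Hoxd8, and 356 CPM of Prrx2, with 3 Hox-positive cells among 161. Cluster 4, led by the cell division genes Esco2, Bub1, Melk, Cep55 and Ska1, held 16 Hox-positive cells among 179, and these had 2078 CPM of Rgs5, against 217 CPM in its Hox-negative cells (3.26, 3.10 to 3.42). Des was at 186 CPM in the Hox-positive and 36.8 CPM in the Hox-negative cells of cluster 4. Low Spp1 was not particular to clusters 1 and 2 (11.7 and 19.0 CPM). Clusters 6, 11 and 13, with few Hox-positive cells, had 14.6, 11.1 and 8.40 CPM. In clusters 6, 11 and 13 Acan was at 31.8, 37.0 and 57.8 CPM and Prrx2 at 5.44, 4.93 and 8.21 CPM. These lay below all Hox-negative cells together (135 and 28.4 CPM). They lay above clusters 1 and 2 (Acan 5.15 and 15.1 CPM, Prrx2 1.72 and 0.942 CPM).

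Members of clusters 1 and 2 differed from each other. The 228 members of cluster 1 had a median of 5807 UMIs per cell and the 290 members of cluster 2 a median of 8652. These clusters were made from the same cells, so the following is description. Igfbp5 was at 179.9 CPM in cluster 1 members and 15.8 CPM in cluster 2 members, Pcp4 at 67.1 and 6.01 CPM, Rgs2 at 142 and 18.8 CPM, and Hspb1 at 12452 and 5414 CPM. The reverse order held for the growth factor binding protein Igfbp2 (21.5 CPM in cluster 1 members and 268 CPM in cluster 2 members), the matrix proteins periostin, Postn (508 and 2805 CPM), and thrombospondin, Thbs1 (71.2 and 349 CPM), and elastin, Eln (1181 and 4399 CPM). Hox-negative cells of KO AngII had 16.5 CPM of Igfbp5 and 26.4 CPM of Rgs2, so cluster 2 members were not above them for Igfbp5 and Rgs2. Hoxa9 was at 20.8 and 20.7 CPM, and the interval of Hoxd8 (14.8 and 23.3 CPM, -1.43 to 0.06) included 0, so these 2 genes could not be told apart at this depth. Hoxc10 (129 and 89.8 CPM) and Hoxa10 (116 and 74.4 CPM), which chose the members, were higher in cluster 1 members.

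The few members of the other libraries were described separately. The 33 WT saline members had 1055 CPM of Rgs5, against 195 CPM in WT saline Hox-negative cells (2.43, 2.25 to 2.61), and 27.4 CPM of Hoxa9 from 7 UMIs, against 1.14 CPM. Their Des (109.8 CPM, against 135 CPM) and Hspb1 (1960 CPM, against 2170 CPM) were not raised. The 17 KO saline members had 1439 CPM of Rgs5, against 395 CPM in KO saline Hox-negative cells, and 36.5 CPM of Hoxc9 from 5 UMIs, against 0.416 CPM. Their P2rx1 was at 58.4 CPM, against 18.2 CPM. For Des (109.5 CPM, against 146 CPM) and Hspb1 (1556 CPM, against 1361 CPM) the intervals of the log2 ratio included 0. These 17 members also had 153 CPM of Pecam1 and 43.8 CPM of Cdh5, endothelial genes, against 25 and 0.371 CPM. The part of endothelial RNA in these values was not tested. In KO AngII, Pecam1 was at 3.91 CPM in Hox-positive and 7.94 CPM in Hox-negative cells. The 5 WT AngII members had 24 UMIs of Rgs5 (464 CPM, 298 to 691, against 303 CPM) and 8 UMIs of P2rx1 (155 CPM, 66.8 to 305, against 27.0 CPM). Their Hspb1 was at 1200 CPM, against 1245 CPM, and Des had 0 UMIs. They were too few to describe further.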

How the data were processed

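Single cells of the thoracic aorta were captured with 10x Genomics Chromium 3′ v3 chemistry, per the labels' protocols. Deposited values were raw counts, whole UMIs for 17524 gene symbols in each cell. The submitters' processing notes name Cell Ranger and mm10. The sources used here give neither the annotation nor any filter before deposit. The members and gene lists were chosen with earlier results of these data known.

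Cells under 500 genes or over 20% mitochondrial UMIs were left out. Counts were summed over each set of cells and given as CPM, with exact Poisson intervals. Log2 ratios have exact conditional binomial intervals and shares exact Clopper-Pearson intervals, all at 95%. A gene was tested with at least 50 expected UMIs in the smaller set and, to limit free RNA, a CPM in the higher set of at least 0.1 of its highest CPM in the fibroblast, phagocyte and endothelial gates of KO AngII. Named genes were the label's markers, Hox genes with at least 20 UMIs in members, the 12 higher and 12 lower genes whose intervals ended farthest from 0, up to 4 members per list with the largest ratios, and the leading genes of clusters. A few genes that this rule or the lists name are not reported here. Genes compared between members of clusters 1 and 2 were chosen after their values were seen. No doublet caller was run, and an alternative with stricter limits on other cells was tried in its place. The ratio script was tested on simulated data. Clusters used scanpy 1.11.5 (2000 variable genes, 30 principal components, 15 neighbours, Leiden resolution 1). TMM factors came from edgeR 4.0.16, used for scaling only. Promoter windows were RefSeq's, on GRCm38.p6. Gene positions were from GENCODE M21, the same build as mm10.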

Additional observations from a re-analysis of the deposited data

Results flagged for a closer look

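Hoxc10 or Hoxa10 UMIs also appeared outside smooth muscle. In the fibroblast gate (Dcn plus Lum of at least 10 UMIs and Myh11 under 3), which the comparisons above do not use, 67 of 1933 KO AngII cells carried them (3.47%, exact interval 2.70 to 4.38), at a median of 11808 UMIs per cell. The shares were 0 of 645 in KO saline, which allows up to 0.465%, 1 of 1751 in WT AngII (0.0571%) and 3 of 1062 in WT saline (0.282%). Median depths of the fibroblast gate in KO saline, WT AngII and WT saline were 3705, 9201 and 3632 UMIs. Thinned to 5000 UMIs the KO AngII share was 2.48%, and 0.231% in its phagocyte gate. The thinned fibroblast gate gave 0 of 209 cells in KO saline, 0 of 1559 in WT AngII and 1 of 248 in WT saline (0.403%). The 67 cells had 17.4 CPM of Hoxa9 and 34.8 CPM of Hoxc9, against 1.05 and 3.96 CPM in the other 1866 fibroblast-gate cells. Hoxb2 was at 47.9 and 62.6 CPM, with an interval of the log2 ratio (-0.93 to 0.11) that included 0. They also had 179.9 CPM of Rgs5, against 54.4 CPM, and the part of smooth muscle RNA in these values was not tested.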

How the results depend on the processing

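Of 140 named genes, 83 were at least 1.5-fold apart. All 83 kept their direction in every one of 16 alternatives and 67 stayed at least 1.5-fold apart. The alternatives drew on the same library, and the other named genes were not counted in this. Counts of genes past a limit depended on the setting, and the cause was not tested. The 183 higher and 232 lower genes at 1.5-fold became 108 and 154 with cells thinned to 5000 UMIs, 68 and 114 with members also chosen again after thinning, 336 and 408 with at least 20 expected UMIs, 74 and 93 with at least 200, and 1940 and 1147 with no minimum. With at least 10 Myh11 UMIs 120 were higher. Genes at least 2-fold higher (58) became 34 and 25 with the thinned sets, 106, 25 and 1268 with a minimum of 20, 200 and none. Genes at least 2-fold lower (57) became 33 with members chosen after thinning, and 101, 24 and 506 with those minimums. Other scaling moved ratios by 0.01. The KO AngII share (11.7%) was 4.47% with at least 2 Hox UMIs, 13.9% with at least 10 Myh11 UMIs and 9.34% with the gate applied after thinning. With at least 2 Hox UMIs the shares were 0.0101% in KO saline, 0 in WT AngII and 0.0821% in WT saline. The leading cluster held 49.6% to 49.7% Hox-positive cells under other clustering settings. Leaving out cells with barcodes shared between libraries, added after the data were seen, gave 183 higher and 220 lower genes. No paired analysis was possible because each group is 1 library. Hoxc10 and Hoxa10 are sparse, so Hox-negative sets hold cells in which the transcript was not captured, and depth limits how well single cells are placed.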
